A study of Mus musculus with 5 samples.

Results

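The 36 genes described here take glucose into B16F10 mouse melanoma cells, carry it through glycolysis to lactate, store it as glycogen or divert it into the pentose phosphate pathway. They were taken by gene symbol from a table of 54100 genes, matched 37 of its rows and were all measured. The extra row is a second identifier of Aldoa with no more than 1.51 CPM, which was not counted. Poly(A) RNA was sequenced from 1 library for each of 5 groups, and each library pools 3 repeats of its experiment. The groups are B16F10 cells labelled HIF-1α overexpression, cells labelled HIF-1α knockdown, wild-type cells in dynamic suspension culture, wild-type cells in conventional 3D culture and a control labelled shControl, also given a wild-type genotype. The labels give no treatment for any library. The study's description presents the 2 cultures as ways to enrich cells with stem-like properties. Every sample carries the same growth protocol, in which spheroids form over 7 to 10 days in serum-free medium without added growth factors, shaken at 60 to 80 rpm. That text does not separate the 2 cultures. How HIF-1α was raised or lowered, and in how many clones, is not given in the sources used here.

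Glucose enters cells through facilitative transporters, is trapped by hexokinase and is committed to glycolysis by phosphofructokinase. Pyruvate at the end of the pathway is reduced to lactate and exported, or enters mitochondria unless pyruvate dehydrogenase kinases switch off the enzyme that admits it. HIF-1α, the oxygen-regulated subunit of a transcription factor, is a textbook activator of many of these genes, and several steps are served by more than 1 isoform with its own gene.

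The deposited values summed to 15393189 in the library labelled overexpression, 14803426 in the library labelled knockdown, 61014260 in dynamic suspension, 61267892 in conventional 3D and 59493240 in shControl. All values are whole numbers, but in the first 2 columns fewer genes stand at 4 than at 3 (487 and 620 in labelled overexpression), as in plain read counts, and in the other 3 more do (926 and 425 in dynamic suspension). Those 3 columns were taken as estimated counts, and no label gives the kind. In any comparison of a labelled HIF-1α library with shControl the kind of value and the group cannot be told apart. Hif1a itself stood at 384 CPM in labelled overexpression, 95.1 in labelled knockdown, 390.5 in dynamic suspension, 542 in conventional 3D and 61.3 in shControl. The library labelled overexpression was therefore above shControl but not above either wild-type culture. The library labelled knockdown was also above shControl, against its label. Its column is headed by the name of the cell line alone, so whether it holds knockdown cells is in doubt, and it is called by its label throughout. All 10 melanocyte markers were measured, with sums between 15442 CPM in labelled knockdown and 32784 CPM in conventional 3D. None of the 10 epithelial and none of the 6 erythroid markers reached a mean of 1 CPM, and 5 of 8 endothelial and 5 of 12 immune markers were at 0 in all 5 libraries. The 8 fibroblast markers summed to 15.8 CPM in labelled overexpression, 35.6 in labelled knockdown, 37.6 in dynamic suspension, 129 in conventional 3D and 38.4 in shControl, and the 12 immune markers, of which Cd68 alone averaged 1 CPM or more, to 8.81, 1.25, 14.3, 17.3 and 4.72 CPM in that order. The part of either in the results was not tested. In bulk RNA a smaller number of cells of 1 kind and less RNA per cell cannot be told apart.

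Levels are given as CPM, counts relative to each library's total after TMM scaling, which corrects for composition, and differences as log2 ratios. With 1 library in each group there is no replicate check and no test, and the 95% intervals cover counting error only, taking each deposited value as a count of independent reads. A gene is called beyond 2-fold when its log2 ratio is at least 1 in size, the 2 libraries average at least 1 CPM and the interval excludes equality. Of the 36 genes, 22 have exon sequence of their own, and 14 share at least 10% of their 31-base words or exon bases with other genes, so that reads could be split among them. Those 14 are Gpi1, Pfkm, Pfkfb2, Aldoa, Tpi1, Gapdh, Pgk1, Pgam1, Eno1, Pkm, Ldha, Ldhb, G6pdx and Taldo1, and their values are uncertain on that account.

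The 36 genes took their largest share of the deposited values in dynamic suspension and their smallest in shControl. They took 3.03% of all deposited values in labelled overexpression, 2.44% in labelled knockdown, 3.68% in dynamic suspension, 2.64% in conventional 3D and 1.82% in shControl. Each interval of these shares is narrower than the smallest gap between libraries, but covers counting error only. The shares leave out other genes that carry Gapdh sequence. Those genes summed to 216 CPM in labelled overexpression and 192 in labelled knockdown, but 14184 in dynamic suspension, 11923 in conventional 3D and 6708 in shControl. With Gapdh added, they summed to 594 and 393 CPM in the libraries labelled overexpression and knockdown, and to 15080, 12199 and 7122 in the other libraries in that order. The difference is thus not only in the split of reads between Gapdh and these genes. The order of shares between libraries of plain and of estimated counts therefore depends on whether and how such reads were counted. Dynamic suspension held the highest level of 18 genes and shControl that of 1, whereas labelled overexpression held the lowest level of 0 genes and shControl that of 21. How often each library was highest or lowest among all measured genes was not counted, so these numbers are not read as particular to the 36 genes. Altogether 27 of the 36 genes passed 2-fold in at least 1 of 6 comparisons, a count that was not made for all measured genes. The other 9, which stayed within 2-fold in all 6, were Hk2, Pfkfb3, Pgk1, Pgam1, Eno1, Slc16a1, Pdk3, Pgd and Taldo1, of which Hk2 passed it under other scalings.

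**Figure D1:**
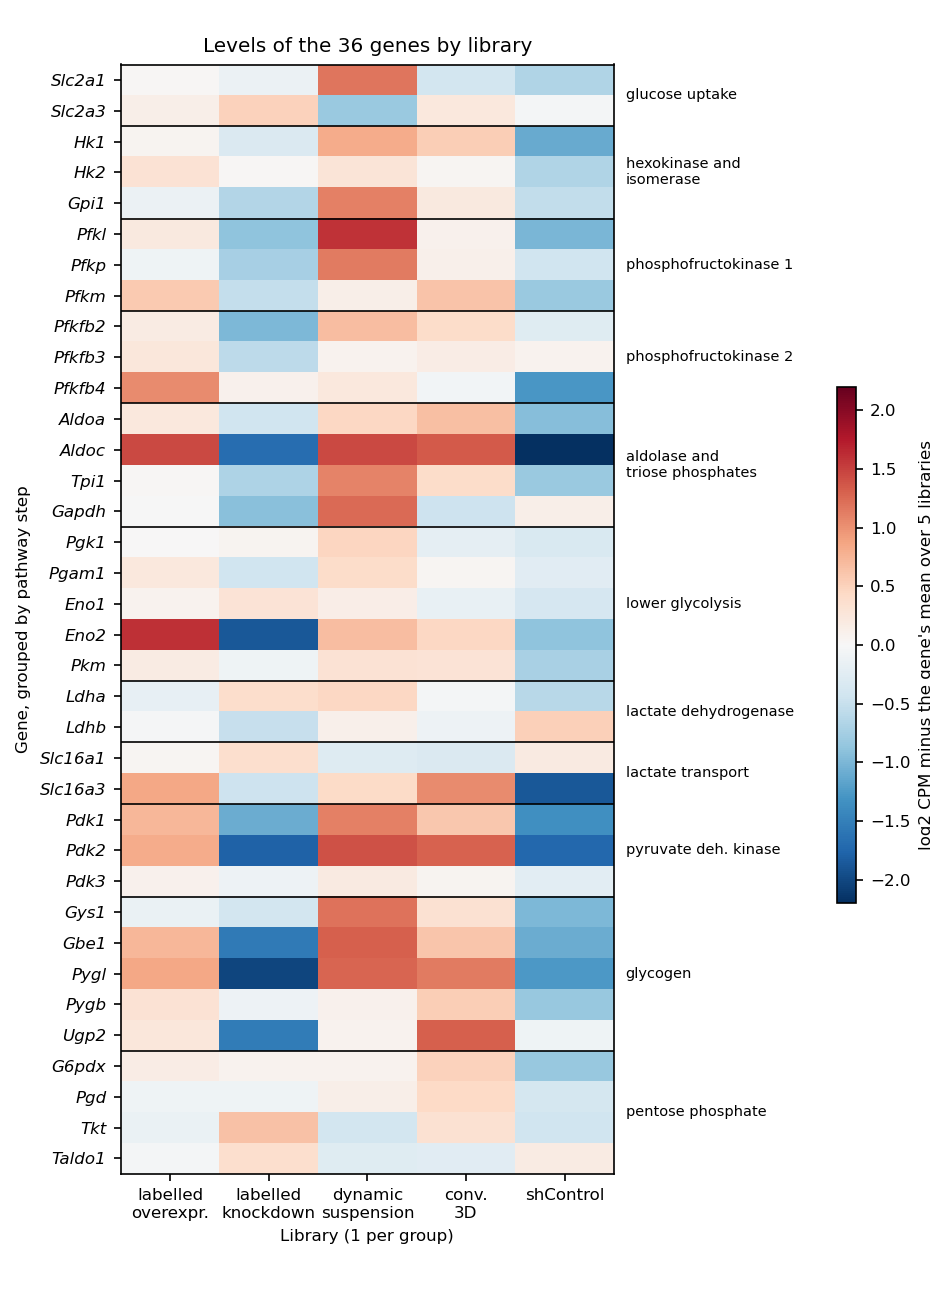
Level of each of the 36 genes in the 5 libraries, grouped by pathway step, with colour giving the log2 level relative to the gene's own mean over the libraries. Most of the 36 genes are lowest in shControl or labelled knockdown, and 18 are highest in dynamic suspension. No such count was made for all measured genes.

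The question put by the 2 wild-type cultures is whether dynamic suspension alters gene expression relative to conventional 3D. Between them 4 of 36 genes were higher in dynamic suspension beyond 2-fold and 2 were lower, which is 11.1% and 5.56%, against 6.47% and 7.68% of 12875 measured genes, so the counts were near those of genes at large. The higher genes were the transporter gene Slc2a1, the phosphofructokinases Pfkl and Pfkp, and Gapdh, whose value depends on shared reads. Slc2a3, a second glucose transporter, and Ugp2, which makes the UDP-glucose from which glycogen is built, were lower. The median log2 ratio was 0.23 for the 36 genes and -0.02 for all measured genes. Scaling by total counts instead gave 6 higher and 1 lower among the 36, and 1120 higher and 706 lower in place of 833 and 989 among all genes.

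**Figure D2:**
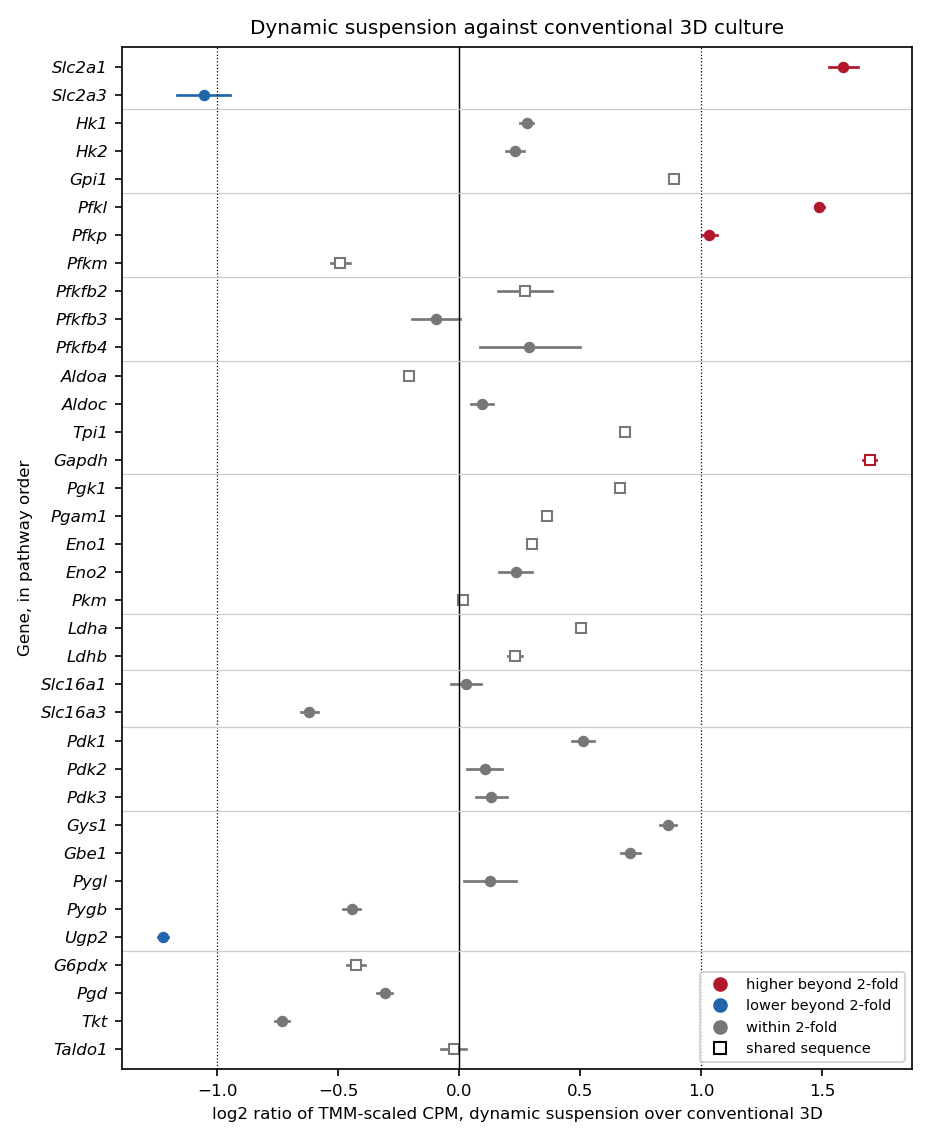
Log2 ratio of dynamic suspension over conventional 3D for each of the 36 genes with 95% intervals of counting error, ordered by pathway step, with squares for genes of shared sequence. Slc2a1, Pfkl, Pfkp and Gapdh lie above 1, Slc2a3 and Ugp2 below -1, and all 4 pentose phosphate genes are on the negative side within 2-fold.

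Set against shControl, both cultures had about as many of the 36 genes beyond 2-fold, all of them higher. Dynamic suspension had 19 higher and 0 lower, or 52.8% and 0%, against 13.8% and 14.9% of 12940 measured genes, with medians of 1.05 and -0.03. Conventional 3D had 18 higher and 0 lower, against 14.1% and 14.9% of 12929 genes, with medians of 0.92 and -0.01. These comparisons share the shControl library, so their values stand side by side and neither supports the other. Both are made between estimated counts. Total-count scaling shifted the median of all genes to -0.27 for conventional 3D over shControl, where 14 of the 36 were then higher and 0 lower and 1278 and 2745 of all genes took the place of 1819 and 1925.

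The libraries labelled for HIF-1α pose the question of what its dose does to the cells. Hif1a RNA was higher in labelled overexpression than in labelled knockdown, but across all libraries it did not follow the labels, as given above. These comparisons therefore go by label, and an effect of dose was not tested. Labelled overexpression over labelled knockdown, both plain counts, gave 11 of 36 higher and 0 lower, against 17.5% and 14.8% of 12305 genes, and medians of 0.58 and -0.03. Over shControl, labelled overexpression gave 13 higher and 0 lower, against 16.1% and 20.1% of 12881 genes, and medians of 0.77 and -0.02. Labelled knockdown over shControl gave 4 higher and 3 lower, against 8.04% and 15.6% of 12639 genes, with 11.1% near the first share, and medians of 0.28 and 0.01. With scaling factors from protein-coding genes of own sequence this last count became 2 higher and 4 lower, and the median of all genes moved to -0.12. Among the 22 genes of own sequence, dynamic suspension over conventional 3D gave 3 higher (13.6%) and 2 lower (9.09%), against 6.47% and 7.68% of all measured genes. Labelled knockdown over shControl gave 3 (13.6%) and 1 (4.55%), against 8.04% and 15.6%. The other 4 comparisons gave 0 lower, against 14.8% to 20.1%. Labelled overexpression over labelled knockdown gave 9 higher (40.9%, against 17.5%). Over shControl, 11 were higher in labelled overexpression (50%, against 16.1%), 13 in dynamic suspension (59.1%, against 13.8%) and 13 in conventional 3D (59.1%, against 14.1%). No share was counted over genes of own sequence alone.

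Glucose uptake differed mainly in dynamic suspension (gene coordinates below are those of GENCODE M21 on GRCm38). Slc2a1 (GLUT1, chromosome 4, 119108711 to 119137983, plus strand) is the basal glucose transporter of most proliferating cells, and had 74.8 CPM in labelled overexpression, 66.9 in labelled knockdown, 166 in dynamic suspension, 55.2 in conventional 3D and 46.2 in shControl. Slc2a3 (GLUT3, chromosome 6, 122727809 to 122801640, minus strand), a high-affinity transporter best known from neurons, had 34.1 CPM in labelled overexpression, 44.2 in labelled knockdown, 17.7 in dynamic suspension, 36.8 in conventional 3D and 30.2 in shControl. Slc2a1 was thus highest, and Slc2a3 lowest, in dynamic suspension. Over conventional 3D, Slc2a1 had a log2 ratio of 1.59 (95% interval 1.53 to 1.65) and Slc2a3 had -1.06 (-1.17 to -0.95), a call lost with total-count scaling. Over shControl, Slc2a1 passed 2-fold in dynamic suspension alone (1.84, 1.78 to 1.91). Per length, Slc2a1 made up 95.1% of the sum of the pair in dynamic suspension (94.8% to 95.4%, Clopper-Pearson), against 75.6% in conventional 3D (74.5% to 76.7%). Slc2a1 made up 82.0% in labelled overexpression, 75.8% in labelled knockdown and 76.0% in shControl.

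Hexokinase traps glucose as glucose phosphate, and Hk1 and Hk2 encode its mitochondria-binding forms. Hk1 had 284 CPM in labelled overexpression, 217 in labelled knockdown, 479 in dynamic suspension, 395 in conventional 3D and 125 in shControl, and passed 2-fold over shControl in 3 libraries. Its log2 ratio over shControl was 1.18 (1.13 to 1.23) in labelled overexpression, 0.79 in labelled knockdown, 1.94 (1.90 to 1.97) in dynamic suspension and 1.66 (1.62 to 1.70) in conventional 3D. Hk2 ranged over 129 to 254 CPM. Its ratio of 0.98 in labelled overexpression over shControl passed 2-fold with total-count scaling and with DESeq2 size factors. Hk1 therefore took 57.5% of the per-length sum in dynamic suspension and 56.6% in conventional 3D, against 43.8% in labelled overexpression, 42.0% in labelled knockdown and 40.5% in shControl. Which of the pair led depended on the length used: with the longest transcript Hk1 led in all 5 libraries, at 55.6% to 71.3%. Gpi1, the isomerase that follows, had 1327 CPM in labelled overexpression, 921 in labelled knockdown, 3107 in dynamic suspension, 1677 in conventional 3D and 996 in shControl, and passed 2-fold in dynamic suspension over shControl (1.64).

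The phosphofructokinase step showed the largest culture difference among the enzymes of own sequence. Pfkl, the liver-type subunit (chromosome 10, 77986947 to 78010083, minus strand), had 568 CPM in labelled overexpression, 267 in labelled knockdown, 1468 in dynamic suspension, 523 in conventional 3D and 243 in shControl. The platelet-type subunit Pfkp had 203 CPM in labelled overexpression, 130.4 in labelled knockdown, 479 in dynamic suspension, 234 in conventional 3D and 160.0 in shControl. The muscle-type subunit Pfkm had 204 CPM in labelled overexpression, 95.6 in labelled knockdown, 150.4 in dynamic suspension, 211 in conventional 3D and 77.2 in shControl. Pfkl and Pfkp were highest in dynamic suspension, while Pfkm was below its level in conventional 3D there. The log2 ratios of dynamic suspension over conventional 3D were 1.49 (1.47 to 1.51) for Pfkl, 1.03 (1.00 to 1.06) for Pfkp and -0.49 for Pfkm. Pfkl took 73.1% of the per-length sum of the 3 in dynamic suspension, against 49.2% in conventional 3D, and 51.0% to 52.8% in the other libraries. Labelled overexpression over labelled knockdown gave 1.09 for Pfkl and 1.09 for Pfkm, both beyond 2-fold, and 0.64 for Pfkp. Over shControl, Pfkl was 1.22 in labelled overexpression, 2.59 in dynamic suspension and 1.10 in conventional 3D, the last lost with total-count scaling. Pfkp passed 2-fold over shControl in dynamic suspension (1.58), and Pfkm in labelled overexpression (1.40) and conventional 3D (1.45).

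The bifunctional enzymes encoded by the Pfkfb genes set the level of the sugar phosphate that activates phosphofructokinase. They were among the least abundant of the 36 genes per length. Pfkfb4 had 13.6 CPM in labelled overexpression, 7.02 in labelled knockdown, 7.73 in dynamic suspension, 6.31 in conventional 3D and 2.71 in shControl, with log2 ratios over shControl of 2.31 in labelled overexpression, 1.36 in labelled knockdown, 1.50 in dynamic suspension and 1.21 in conventional 3D, all beyond 2-fold, the last not with total-count scaling. Pfkfb4 was also the gene with the lowest per-length level of the 36 in dynamic suspension, conventional 3D and shControl. Pfkfb2 had 18.6 CPM in labelled overexpression, 8.27 in labelled knockdown, 26.1 in dynamic suspension, 21.6 in conventional 3D and 13.7 in shControl, and passed 2-fold between labelled overexpression and labelled knockdown (1.16). Pfkfb3 had 31.4 CPM in labelled overexpression, 17.7 in labelled knockdown, 27.7 in dynamic suspension, 29.6 in conventional 3D and 27.9 in shControl, and led the family per length in every library, at 41.4% to 60.2%; with the longest transcript Pfkfb2 led narrowly in dynamic suspension.

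Aldolase splits the hexose, and its gene pair behaved differently. Aldoc (chromosome 11, 78322968 to 78327781, plus strand), the isoform best known from brain, had 143 CPM in labelled overexpression, 16.4 in labelled knockdown, 143 in dynamic suspension, 134 in conventional 3D and 8.88 in shControl. Labelled overexpression and the 2 cultures lay close together, and labelled knockdown and shControl lay far below them. The log2 ratio of labelled overexpression over labelled knockdown was 3.12 (2.94 to 3.32), and those over shControl had intervals of 3.88 to 4.15 in labelled overexpression, 3.88 to 4.14 in dynamic suspension and 3.79 to 4.04 in conventional 3D, the largest ratios of the 36 genes in each of these 3 comparisons. Aldoa, the ubiquitous isoform, had 4424 CPM in labelled overexpression, 2784 in labelled knockdown, 5170.4 in dynamic suspension, 5965 in conventional 3D and 1959 in shControl, with 1.17, 1.40 and 1.61 over shControl in the same order. Aldoa had the highest per-length level of all 36 genes in labelled overexpression, dynamic suspension and conventional 3D. Aldoc supplied at most 2.81% of the per-length aldolase sum, in labelled overexpression, and 0.403% in shControl.

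Tpi1, which interconverts the 2 triose phosphates, had 2107 CPM in labelled overexpression, 1292 in labelled knockdown, 4419.9 in dynamic suspension, 2749 in conventional 3D and 1176 in shControl, and passed 2-fold over shControl in dynamic suspension (1.91) and conventional 3D (1.23), the second not with total-count scaling. Gapdh, the dehydrogenase of the next step and a common reference gene, had 378 CPM in labelled overexpression, 200.4 in labelled knockdown, 896 in dynamic suspension, 276 in conventional 3D and 414 in shControl. Its value rests on whether and how reads of shared sequence were counted: 138 other genes, 134 of them annotated pseudogenes, carry its sequence. Those genes summed to 216 CPM in labelled overexpression, 192 in labelled knockdown, 14184 in dynamic suspension, 11923 in conventional 3D and 6708 in shControl. They held 36.4% and 48.9% of the combined value in the 2 libraries of plain counts, and 94.1%, 97.7% and 94.2% in the 3 of estimated counts. With them added, Gapdh in dynamic suspension over conventional 3D was no longer beyond 2-fold, and conventional 3D over shControl took a log2 ratio of 0.78 in place of -0.58. No direction is read from Gapdh on that account. For the other 13 genes of shared sequence the added genes were at most 11.8% of the combined value. A small share does not show that reads of shared sequence were counted alike in all libraries.

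**Figure D3:**
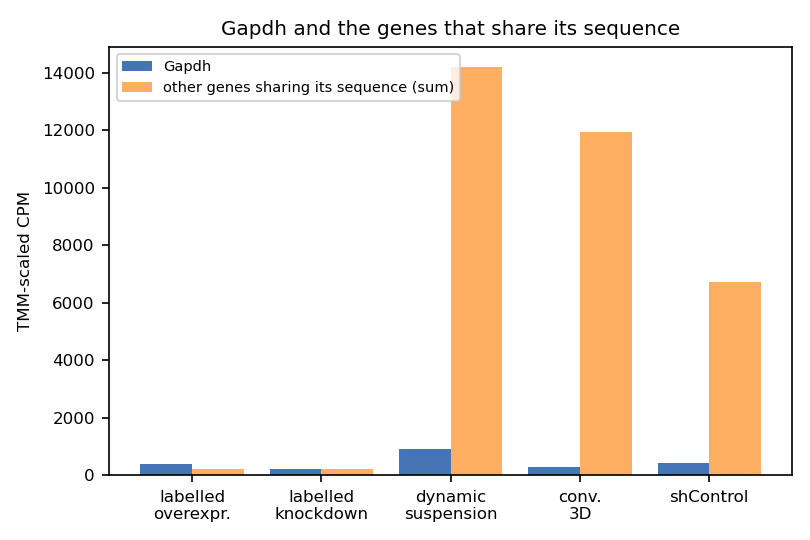
TMM-scaled CPM of Gapdh and the summed CPM of 138 other genes that share its sequence, by library. The sum is 192 to 216 CPM in the 2 libraries of plain counts and 6708 to 14184 CPM in the 3 of estimated counts.

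In lower glycolysis the abundant enzymes stayed within or close to 2-fold and the minor enolase varied most. Eno2 (chromosome 6, 124760053 to 124769673, minus strand), the enolase named for neurons, had 123 CPM in labelled overexpression, 11.1 in labelled knockdown, 65.0 in dynamic suspension, 55.3 in conventional 3D and 21.9 in shControl. It was highest in labelled overexpression and lowest in labelled knockdown, with a log2 ratio of 3.46 (3.25 to 3.71) between them, the largest of the 36 genes in that comparison. Over shControl it was 2.49 in labelled overexpression, 1.57 in dynamic suspension and 1.34 in conventional 3D. Eno1, the common enolase, had 5472 CPM in labelled overexpression, 6439 in labelled knockdown, 5741 in dynamic suspension, 4659 in conventional 3D and 4036 in shControl. Eno1 stayed within 2-fold in all 6 comparisons and led all 36 genes per length in labelled knockdown, with 1197 CPM per kb. Eno2 was 2.51% of the per-length enolase sum in labelled overexpression, 0.197% in labelled knockdown and 0.617% in shControl.

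Pgk1, a kinase that yields ATP, had 2351 CPM in labelled overexpression, 2422 in labelled knockdown, 3238 in dynamic suspension, 2041 in conventional 3D and 1846 in shControl, and Pgam1, the mutase after it, ranged over 755 to 1349 CPM, both within 2-fold throughout. Pgk1 was the gene with the highest per-length level in shControl, at 823 CPM per kb. Pkm, which encodes the pyruvate kinase forms of muscle and of proliferating cells, had 4133 CPM in labelled overexpression, 3419 in labelled knockdown, 4572 in dynamic suspension, 4521 in conventional 3D and 2245 in shControl. Its ratios over shControl were 1.03 in dynamic suspension and 1.01 in conventional 3D, only just beyond 2-fold, and both were lost under total-count scaling and with scaling from genes of own sequence. Counts per gene do not separate its splice forms.

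Lactate dehydrogenase interconverts pyruvate and lactate, and its A subunit gene Ldha had 1488 CPM in labelled overexpression, 2212 in labelled knockdown, 2318 in dynamic suspension, 1636 in conventional 3D and 1101 in shControl. The B subunit gene Ldhb had 316 CPM in labelled overexpression, 226 in labelled knockdown, 348 in dynamic suspension, 297 in conventional 3D and 459.7 in shControl. Ldha was lowest, and Ldhb highest, in shControl. Ldha passed 2-fold over shControl in labelled knockdown (1.01) and dynamic suspension (1.07), and Ldhb was lower beyond 2-fold in labelled knockdown (-1.03). Both calls in labelled knockdown lie at the threshold: Ldha lost its call with total-count scaling and with scaling from genes of own sequence, and Ldhb with DESeq2 size factors. Ldha made up 69.1% of the per-length sum in labelled overexpression, 82.3% in labelled knockdown, 75.9% in dynamic suspension, 72.3% in conventional 3D and 53.2% in shControl.

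Lactate leaves cells through proton-coupled transporters, and the lead isoform differed between libraries. Slc16a3 (MCT4, chromosome 11, 120948480 to 120960868, plus strand), the exporter of strongly glycolytic cells, had 258 CPM in labelled overexpression, 104 in labelled knockdown, 191 in dynamic suspension, 293 in conventional 3D and 39.1 in shControl. Slc16a1 (MCT1), which carries lactate either way, had 89.5 CPM in labelled overexpression, 112 in labelled knockdown, 71.0 in dynamic suspension, 69.6 in conventional 3D and 99.4 in shControl. Slc16a3 was higher over shControl in all 4 comparisons, with 2.72 (2.65 to 2.79) in labelled overexpression, 1.41 (1.32 to 1.50) in labelled knockdown, 2.28 in dynamic suspension and 2.90 in conventional 3D. It was also higher in labelled overexpression over labelled knockdown (1.31). Slc16a3 made up 70.6% of the per-length pair in labelled overexpression, 69.1% in dynamic suspension and 77.8% in conventional 3D, but 43.7% in labelled knockdown and 24.7% in shControl. The longest transcript gave the same lead gene in each library.

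Pyruvate dehydrogenase kinases phosphorylate and inactivate the enzyme complex that passes pyruvate to mitochondria. Pdk1 (chromosome 2, 71873224 to 71903858, plus strand) had 123 CPM in labelled overexpression, 35.0 in labelled knockdown, 160.1 in dynamic suspension, 112 in conventional 3D and 29.2 in shControl. Pdk2 (chromosome 11, 95026258 to 95041354, minus strand) had 37.9 CPM in labelled overexpression, 6.23 in labelled knockdown, 56.4 in dynamic suspension, 52.4 in conventional 3D and 6.46 in shControl. In both, labelled overexpression and the 2 cultures were well above labelled knockdown and shControl, which were close to each other. Labelled overexpression over labelled knockdown gave 1.81 (1.67 to 1.95) for Pdk1 and 2.58 (2.29 to 2.93) for Pdk2. Over shControl, Pdk1 gave 2.07 in labelled overexpression, 2.45 in dynamic suspension and 1.94 in conventional 3D, and Pdk2 gave 2.54, 3.12 and 3.01 in that order. Pdk3 had 71.0 CPM in labelled overexpression, 62.0 in labelled knockdown, 76.2 in dynamic suspension, 69.4 in conventional 3D and 57.0 in shControl, within 2-fold in every comparison. Pdk3 supplied 50.0% of the per-length sum in labelled overexpression, 43.6% in dynamic suspension and 46.7% in conventional 3D, but 78.9% in labelled knockdown and 79.3% in shControl.

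Genes of glycogen, the glucose store, included some of the widest differences. Gbe1, the branching enzyme (chromosome 16, 70313949 to 70569716, plus strand), had 163 CPM in labelled overexpression, 33.5 in labelled knockdown, 245 in dynamic suspension, 149.8 in conventional 3D and 46.4 in shControl. Pygl, the liver-type phosphorylase that releases glucose units (chromosome 12, 70190811 to 70231488, minus strand), had 19.4 CPM in labelled overexpression, 2.63 in labelled knockdown, 25.8 in dynamic suspension, 23.6 in conventional 3D and 4.46 in shControl. Both were lowest in labelled knockdown and highest in dynamic suspension. Labelled overexpression over labelled knockdown gave 2.28 (2.15 to 2.42) for Gbe1 and 2.82 (2.41 to 3.39) for Pygl, whose value in labelled knockdown rests on 40 counts. Over shControl, Gbe1 gave 1.81 in labelled overexpression, 2.40 in dynamic suspension and 1.69 in conventional 3D, and Pygl gave 2.10, 2.52 and 2.40 in that order.

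The muscle-type glycogen synthase Gys1 had 141 CPM in labelled overexpression, 119 in labelled knockdown, 359 in dynamic suspension, 197 in conventional 3D and 79.1 in shControl, and passed 2-fold over shControl in dynamic suspension (2.18) and conventional 3D (1.32). Pygb, the brain-type phosphorylase, had 229.6 CPM in labelled overexpression, 171 in labelled knockdown, 196 in dynamic suspension, 267 in conventional 3D and 104 in shControl, and passed it in labelled overexpression (1.15) and conventional 3D (1.37). It held at least 91.6% of the per-length phosphorylase sum in every library. Ugp2 had 619 CPM in labelled overexpression, 179.8 in labelled knockdown, 553 in dynamic suspension, 1292 in conventional 3D and 487 in shControl, so conventional 3D was far above the others and labelled knockdown far below. Its log2 ratio was -1.22 (-1.24 to -1.21) for dynamic suspension over conventional 3D, 1.78 for labelled overexpression over labelled knockdown, -1.44 for labelled knockdown over shControl and 1.41 for conventional 3D over shControl. In conventional 3D over shControl all 5 glycogen genes were higher beyond 2-fold, against 14.1% of measured genes.

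**Figure D4:**
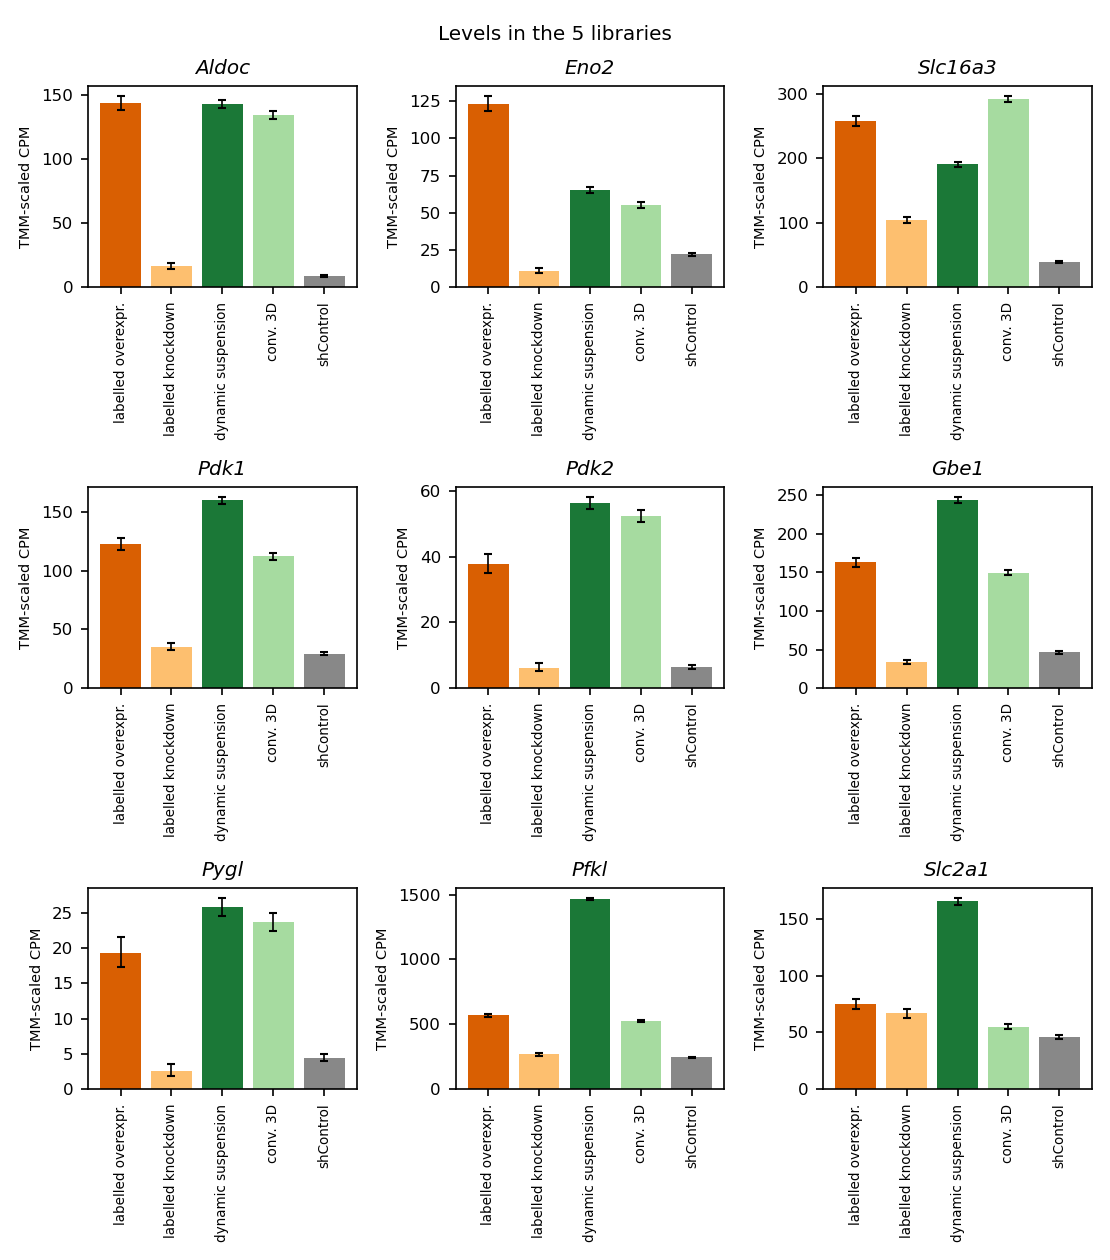
TMM-scaled CPM of 9 genes of own sequence in the 5 libraries, with 95% intervals of counting error. Aldoc, Slc16a3, Pdk1, Pdk2, Gbe1 and Pygl have labelled overexpression and both cultures above labelled knockdown and shControl, Eno2 is highest in labelled overexpression, and Pfkl and Slc2a1 are highest in dynamic suspension.

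The pentose phosphate pathway, which makes NADPH and ribose, had few differences beyond 2-fold. G6pdx, its entry enzyme, had 187 CPM in labelled overexpression, 177 in labelled knockdown, 178 in dynamic suspension, 239 in conventional 3D and 93.7 in shControl, and passed 2-fold in conventional 3D over shControl (1.35). In labelled overexpression over shControl it passed 2-fold only with total-count scaling or DESeq2 size factors. Tkt, the transketolase that links the pathway back to glycolysis, had 320.1 CPM in labelled overexpression, 552 in labelled knockdown, 267 in dynamic suspension, 444 in conventional 3D and 259 in shControl, and passed it in labelled knockdown over shControl alone (1.09, 1.05 to 1.13), but not with scaling from genes of own sequence. Pgd, a second NADPH-producing dehydrogenase, ranged over 169.8 to 302 CPM, and Taldo1, the transaldolase, over 108 to 168 CPM. All 4 had negative ratios in dynamic suspension over conventional 3D, with -0.43 for G6pdx, -0.31 for Pgd, -0.73 for Tkt and -0.02 for Taldo1. Total-count scaling turned the sign of Taldo1 to 0.17, and none of the 4 was beyond 2-fold.

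**Figure D5:**
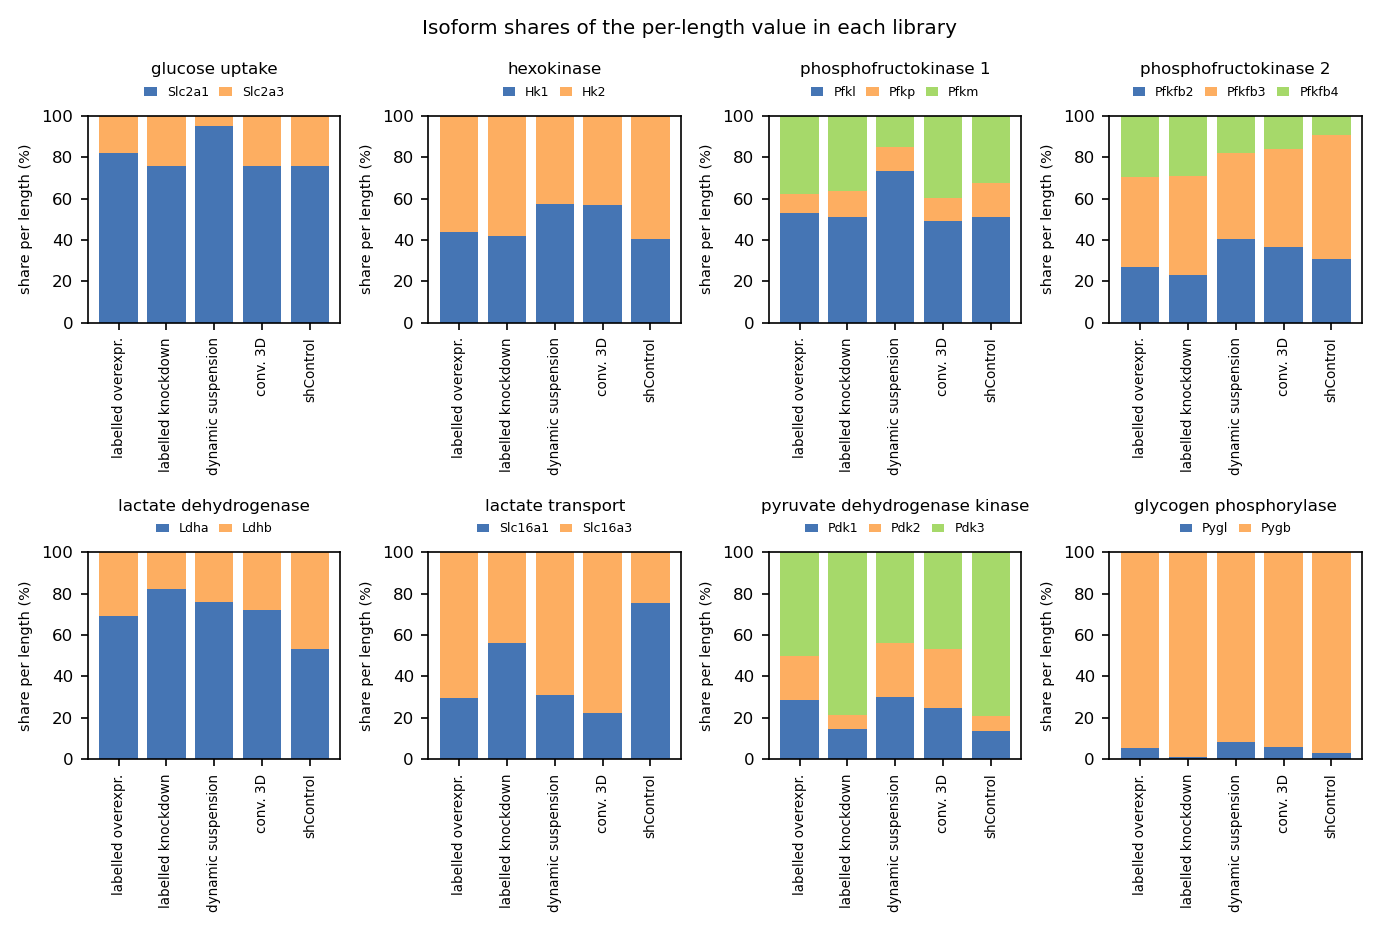
Share of each isoform in the summed per-length value of its family, in percent, for 8 families in the 5 libraries. Slc2a1 and Pfkl take their largest shares in dynamic suspension, at 95.1% and 73.1%, and Slc16a3 takes 77.8% in conventional 3D and 24.7% in shControl.

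Labelled overexpression over labelled knockdown shares no library with a culture over shControl, so the gene lists of such comparisons can be set beside each other. Of the 11 genes higher in labelled overexpression over labelled knockdown, 10 (90.9%) were also among the 18 higher in conventional 3D over shControl, where they make up 55.6%. These were Aldoc, Eno2, Gbe1, Pdk1, Pdk2, Pfkl, Pfkm, Pygl, Slc16a3 and Ugp2. Among 11917 genes measured in both, 938 were higher in both, which is 47.1% and 57.6% of the lists. Against dynamic suspension over shControl 8 genes were shared, 72.7% of the 11 and 42.1% of the 19, with 818 of 11891 genes and shares of 41.6% and 52.4% for all genes. These are counts over few genes, with no test.

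HIF complexes are known to bind DNA at the core RCGTG, where R is A or G. Promoter sequence was read for the genes above for the form ACGTG alone, which is called the core below. RefSeq windows (build GRCm38.p6) from 250 bases before to 50 bases after the annotated start were found for 35 of the 36 genes, all but Slc2a3. The windows of the transporters Slc16a3 and Slc2a1 and of Aldoc, Pdk2 and Pygl are shown because these genes of own sequence had some of the largest differences and hold the core. They lie at chr11:120948817-120949116 (Slc16a3, plus strand), chr11:78322823-78323122 (Aldoc, plus), chr11:95041322-95041621 (Pdk2, minus), chr12:70227634-70227933 (Pygl, minus) and chr4:119108495-119108794 (Slc2a1, plus). The RefSeq starts of Slc16a3 and Pygl lie inside the longer GENCODE genes given above. Each window runs 5′ to 3′ on the strand of its gene, and capitals mark ACGTG, its reverse complement CACGT, or the E-box CACGTG that contains both.
Slc16a3: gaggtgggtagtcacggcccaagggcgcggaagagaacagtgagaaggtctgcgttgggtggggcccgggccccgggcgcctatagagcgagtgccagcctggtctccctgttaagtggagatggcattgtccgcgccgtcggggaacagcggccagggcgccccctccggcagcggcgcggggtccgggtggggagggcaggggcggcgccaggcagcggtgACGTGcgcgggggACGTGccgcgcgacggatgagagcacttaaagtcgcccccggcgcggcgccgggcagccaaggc
Aldoc: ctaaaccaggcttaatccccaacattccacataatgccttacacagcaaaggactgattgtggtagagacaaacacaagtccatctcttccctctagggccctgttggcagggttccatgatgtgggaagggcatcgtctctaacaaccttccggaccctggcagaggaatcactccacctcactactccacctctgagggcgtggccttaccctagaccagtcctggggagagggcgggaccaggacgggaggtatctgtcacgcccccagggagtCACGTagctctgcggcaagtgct
Pdk2: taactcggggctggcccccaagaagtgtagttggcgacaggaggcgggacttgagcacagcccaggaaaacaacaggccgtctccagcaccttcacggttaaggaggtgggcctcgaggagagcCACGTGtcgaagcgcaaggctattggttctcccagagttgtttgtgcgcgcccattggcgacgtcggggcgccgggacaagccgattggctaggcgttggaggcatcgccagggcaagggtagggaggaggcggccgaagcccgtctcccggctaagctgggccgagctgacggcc
Pygl: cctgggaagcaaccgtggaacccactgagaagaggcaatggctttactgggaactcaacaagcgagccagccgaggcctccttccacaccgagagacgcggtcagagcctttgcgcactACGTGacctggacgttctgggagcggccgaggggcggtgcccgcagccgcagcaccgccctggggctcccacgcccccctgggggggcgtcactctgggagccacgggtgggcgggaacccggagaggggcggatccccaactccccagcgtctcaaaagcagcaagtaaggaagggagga
Slc2a1: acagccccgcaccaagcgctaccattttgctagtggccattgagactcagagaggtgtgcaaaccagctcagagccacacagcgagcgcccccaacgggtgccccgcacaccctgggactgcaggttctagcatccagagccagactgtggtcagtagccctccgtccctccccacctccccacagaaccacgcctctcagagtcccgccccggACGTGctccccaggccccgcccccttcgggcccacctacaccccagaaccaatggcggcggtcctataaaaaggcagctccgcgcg
Slc16a3 held the core 2 times on its own strand, Aldoc 1 time on the opposite strand, Pdk2 inside an E-box, and Pygl and Slc2a1 1 time each. Counting a gene when any of its windows held ACGTG on either strand, 21 of 35 genes (60.0%) did, against 29.9% of 9357 genes averaging at least 1 CPM and 21.8% of all 27025 genes in the table. By window the shares were 47.2% of 53, against 25.8% of 11995 and 19.6% of 32851. The E-box CACGTG, any such match counting for both motifs, was in windows of 6 genes (17.1%), against 12.0% and 8.09% of genes. The form GCGTG was not searched for or counted, though windows of Pdk1, Pfkl, Pfkfb4 and Tkt, among others, hold it. No window of Pdk1, Gbe1, Eno2, Gys1, Pfkl, Pfkp, Pfkfb4, Tpi1, Gpi1, Ldhb or Tkt held ACGTG. Genes with and without ACGTG therefore stood among those beyond 2-fold. The same held for genes within 2-fold in every comparison. Hk2, Pfkfb3, Pgk1, Pgam1, Slc16a1 and Pdk3 held ACGTG, and Eno1, Pgd and Taldo1 did not. Whether the core goes with the differences was not tested. A match describes letters in a window and shows no binding.

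Genes next to these pathways were read from lists drawn up with the 36. Of 18 isoforms typical of other tissues, 5 averaged at least 1 CPM over the libraries. In dynamic suspension over conventional 3D, 4 of the 5 were lower beyond 2-fold and 1 was higher, against 7.68% and 6.47% of measured genes. Eno3, the muscle enolase, had 173 CPM in labelled overexpression, 40.8 in labelled knockdown, 26.1 in dynamic suspension, 385 in conventional 3D and 20.9 in shControl. Pygm, the muscle phosphorylase, had 75.8 CPM in labelled overexpression, 12.6 in labelled knockdown, 12.3 in dynamic suspension, 144 in conventional 3D and 4.09 in shControl. Both were lower in dynamic suspension than in conventional 3D, opposite to Pfkl and Slc2a1. Slc2a4, the insulin-responsive transporter, had 24.6 CPM in labelled overexpression, 35.2 in labelled knockdown, 4.14 in dynamic suspension, 16.3 in conventional 3D and 16.8 in shControl, and was lowest in dynamic suspension, as Slc2a3 was. Pgam2, the muscle mutase, was the other one lower, with 3.69 CPM in labelled overexpression, 3.28 in labelled knockdown, 0.778 in dynamic suspension, 3.66 in conventional 3D and 1.87 in shControl. The higher one was Slc16a7 (MCT2), a lactate and pyruvate transporter, with 1.31 CPM in labelled overexpression, 2.10 in labelled knockdown, 3.64 in dynamic suspension, 0.752 in conventional 3D and 15.6 in shControl. It was highest in shControl.

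Genes of gluconeogenesis and glycogen control numbered 14 measured. In labelled overexpression over labelled knockdown 6 were higher and 1 lower, against 17.5% and 14.8% of all measured genes. Over shControl, labelled overexpression had 7 higher and 0 lower, against 16.1% and 20.1%. Dynamic suspension had 5 higher and 0 lower, against 13.8% and 14.9%, and conventional 3D had 9 and 0, against 14.1% and 14.9%. Dynamic suspension over conventional 3D gave 0 higher and 2 lower, against 6.47% and 7.68%. Of 13 measured in labelled knockdown over shControl, 1 was higher and 1 lower, against 8.04% and 15.6%. Gyg, the glycogen primer, had 682 CPM in labelled overexpression, 279.6 in labelled knockdown, 478 in dynamic suspension, 1215 in conventional 3D and 254 in shControl. It was lowest in shControl and highest in conventional 3D.

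The pyruvate dehydrogenase complex and the mitochondrial pyruvate carrier handle the pyruvate that the Pdk kinases help to hold back. Of 9 genes, 0 were higher in any of the 6 comparisons, against 6.47% to 17.5% of all measured genes. In dynamic suspension over shControl 2 were lower, against 14.9%. In each of the other 5 comparisons at most 1 was, against 7.68% to 20.1%. The gene lower in both labelled libraries over shControl was the carrier gene Mpc1, which shares sequence with other genes. Mpc1 had 13.7 CPM in labelled overexpression, 14.4 in labelled knockdown, 44.7 in dynamic suspension, 48.7 in conventional 3D and 48.4 in shControl. Its difference cannot be told apart from the kind of value. The 9 genes summed to 560 CPM in labelled overexpression, 562 in labelled knockdown, 543 in dynamic suspension, 618 in conventional 3D and 810 in shControl. A further list of 14 genes joined the rest of the pentose phosphate pathway with branches that leave glycolysis, toward serine, glycerol phosphate and hexosamine. Of these, 5 were higher and 1 lower in labelled knockdown over shControl, against 8.04% and 15.6% of measured genes. Labelled overexpression over labelled knockdown gave 2 higher and 5 lower, against 17.5% and 14.8%. The 5 higher in labelled knockdown were the pentose phosphate genes Pgls and H6pd and the serine genes Phgdh, Psph and Shmt2. Those highest in labelled knockdown included Phgdh, the first enzyme of serine synthesis, and Shmt2, a mitochondrial enzyme of serine use. Phgdh had 151 CPM in labelled overexpression, 1167 in labelled knockdown, 143 in dynamic suspension, 232 in conventional 3D and 435 in shControl. Shmt2 had 80.6 CPM in labelled overexpression, 930.3 in labelled knockdown, 93.1 in dynamic suspension, 134 in conventional 3D and 371 in shControl. Both were lower in labelled overexpression than in shControl. Among 12 regulators, Txnip, which holds back glucose uptake, had 454 CPM in labelled overexpression, 112 in labelled knockdown, 223 in dynamic suspension, 542 in conventional 3D and 56.6 in shControl. Bsg, the chaperone of the lactate transporters, had 1226 CPM in labelled overexpression, 626 in labelled knockdown, 2455 in dynamic suspension, 888 in conventional 3D and 687 in shControl. Bsg was highest in dynamic suspension and Txnip in conventional 3D. Phgdh and Txnip share sequence with other genes.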

How the data were processed

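Poly(A) RNA of B16F10 cells was sequenced from strand-specific libraries as paired 150-base reads (insert about 300 bases), per the labels' protocols. The submitters' processing notes name cutadapt, HISAT2 and StringTie and the builds GRCm38.p6 and mm10, while the sources used here do not give the role or settings of each, nor whether counting used strand. The authors deposited 1 table of 54100 genes, in which the columns of the libraries labelled HIF-1α overexpression and knockdown hold plain counts per gene and those of the other 3 libraries were taken as estimated counts. All 5 columns hold whole numbers, no label names the counting step, and the 2 kinds were told apart by how many genes stand at 3 and at 4. All identifiers matched GENCODE M21. Columns with no sample numbered 0.

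TMM factors over the 5 libraries came from edgeR 4.0.16 (R 4.3.3) and ran between 0.8686 and 1.091. All values were used as deposited, without rounding. Log2 ratios used a prior count of 2, and intervals were exact conditional binomial ones at 95%, computed with scipy 1.17.1. Levels of different genes were compared per kb of exon union. Libraries were grouped by their labels, and 6 comparisons were made without a test. A count of 3 corresponds to 0.179, 0.197, 0.0497, 0.0564 and 0.0487 CPM in labelled overexpression, labelled knockdown, dynamic suspension, conventional 3D and shControl. Alternatives were total-count and DESeq2 1.42.0 size-factor scaling, TMM over protein-coding genes of own sequence, no minimum CPM, a prior count of 0.5, adding genes of shared sequence, and the longest transcript as length. The steps were tested on simulated data.

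Genes were given in every library when beyond 2-fold in any comparison or highest per length in their step, and genes outside the 36 were named only from the neighbour lists and only when beyond 2-fold in a comparison, which does not name all such genes. The 36 genes and all lists were chosen with earlier results of these data known.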

Additional observations from a re-analysis of the deposited data

How the results depend on the processing

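Of the counts recomputed under an alternative, 70 were rated the same and 3 moved. A count of genes beyond 2-fold was the same if within 1.5 times the reported count, and all 3 that moved were such counts. Lower in dynamic suspension over conventional 3D became 1 with total-count scaling, which moved the median of all genes to 0.17. Lower in labelled overexpression over shControl became 1 (Gapdh) when genes of shared sequence were added. Higher in labelled knockdown over shControl became 2 with scaling from genes of own sequence, which lost Ldha and Tkt. That last scaling moved the median of all genes in labelled overexpression over shControl to -0.16. Beyond these, 96 ratios of called genes moved past their interval, 348 did not, and no called gene changed sign. Slc2a3 in dynamic suspension over conventional 3D was lost with total-count scaling, which added Gpi1 and Gys1. Of 36 medians of the genes' ratios under an alternative, 29 moved and 7 kept their value: total-count scaling gave 0.42 in place of 0.23 for dynamic suspension over conventional 3D and 0.67 in place of 0.92 for conventional 3D over shControl, and scaling from genes of own sequence gave 0.15 in place of 0.28 for labelled knockdown over shControl. Hk2 and G6pdx were gained in labelled overexpression over shControl with total-count scaling and with DESeq2 size factors. Signs changed for 13 ratios of genes within 2-fold. No paired analysis was possible because each group has 1 library, and no replicate could be left out.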
